A study of Mus musculus with 8 samples.

Results

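The proteasome and the enzymes that activate ubiquitin and pass it on were examined in livers of male Eps8KO mice aged 17 weeks. Members were the genes on the array whose symbol begins with Psma to Psmg and a digit, or with Ube2, or is that of a ubiquitin-activating enzyme, of which Uba6 was read. They numbered 60 of 8789 named genes and were read from 81 probes. The proteasome counted 39 genes (45 probes), the enzymes 19 (31 probes), and 2 further genes matched by symbol, Psmc3ip and Psme3ip1, encode partner proteins that are no subunits and were kept apart. RNA of each of 4 Eps8KO mice, which lack the actin regulator Eps8, was hybridised on 2-colour cDNA arrays against 1 pool of WT liver RNA, from males of the same age. Each mouse was measured on 2 arrays, once in Cy5 and once in Cy3, which gave 8 arrays. The labels disagree on the size of the WT pool, with 5 animals listed by number, 6 named where labelling is described and 4 in the design text. The pool is 1 control sample, so no WT spread enters the tests.

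The proteasome is a barrel of 4 stacked rings, of which the outer ones are built of alpha and the inner ones of beta subunits. Beta subunits cut the protein chain. A regulatory particle of ATPases and non-ATPase subunits recognises, unfolds and feeds in proteins that carry ubiquitin chains, and activators can take its place. Ubiquitin reaches these proteins from an activating enzyme (E1), through a conjugating enzyme (E2), with the help of a ligase (E3). In hepatocytes this system removes short-lived and misfolded proteins, including those drawn back out of the endoplasmic reticulum.

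Proteasome genes share a known regulator, the transcription factor Nfe2l1, which binds antioxidant response elements (ARE). The 100 bases before the gene start are shown for the catalytic subunits Psmb5 and Psmb6, which bear on the core ring results, and for Ube2j1, the enzyme with the highest ratio, from RefSeq promoters of GRCm38.p6. Capitals mark TGACNNNGC read on either strand.
Psmb5, chr14:54617996-54618095, minus strand: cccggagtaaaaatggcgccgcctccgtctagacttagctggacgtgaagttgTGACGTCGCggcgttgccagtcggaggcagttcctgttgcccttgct
Psmb6, chr11:70525257-70525356, plus strand: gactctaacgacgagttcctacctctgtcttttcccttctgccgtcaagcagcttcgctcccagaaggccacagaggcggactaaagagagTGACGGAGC
Ube2j1, chr4:33031280-33031379, plus strand: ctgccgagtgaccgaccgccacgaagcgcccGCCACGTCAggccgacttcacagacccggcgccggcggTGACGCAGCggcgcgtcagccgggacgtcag
The letters began 47 bases before the start in Psmb5 and 9 before it in Psmb6, and at 69 and 31 bases before it in Ube2j1. Over windows of 300 bases, they occurred in 5 of 36 proteasome promoters (13.9%, 33 genes matched), 2 of 22 enzyme promoters (9.09%, 15 genes matched) and 4071 of all 32851 promoters (12.4%). The shares of both classes thus lay near that of all promoters, and a match of letters is a description of the sequence alone. Promoters of the other catalytic subunits Psmb8, Psmb9 and Psmb10 held 0 matches, so the promoters shown are examples with a match.

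Each deposited value is a ratio of Cy5 to Cy3 on the log2 scale, with no level or intensity behind it, so genes cannot be ranked by abundance, and fewer cells of a type cannot be told apart from less RNA per cell. Where Cy3 marked the Eps8KO RNA the sign was reversed, so that a value above 0 stands for more RNA in Eps8KO than in WT liver. Arrays held 17968 to 18802 values of 20355 spots, with array medians from -0.28 to -0.077 before turning. Eps8 itself had no named row, so its loss was not checked here. Names rest on a shift of 32 between probe and row numbers that earlier work took from the values and that the depositors do not state. The turned ratios of Orm1, Hpx and Mt1 were below 0 on 8 of 8 arrays and that of Inmt above 0 on 8 of 8, but such genes took part in finding the names. After turning, mean ratios of any 2 mice correlated across all features with r between -0.029 and 0.032, which leaves little in common between animals. Of hepatocyte markers, 3 of 8 listed were measured, at 0.18 to 0.34, and Apoa1, the highest, passed an unadjusted p under 0.05 in limma. Apoa1 was at 1.32 where Cy5 marked the Eps8KO RNA and -0.64 where Cy3 did. Ttr turned likewise, at 0.95 and -0.59, while Alb was at 0.27 and 0.33. Of 4 bile duct markers, Krt7 was lower at an unadjusted p under 0.05 in limma (-1.51, 4 arrays). Of the 5 lymphocyte, 4 macrophage, 3 endothelial, 2 stellate and 3 red blood cell markers measured, 0 passed it, and the part of cell composition in the results was not tested.

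Members were measured in all 4 mice for 34 proteasome genes, 18 enzymes and both partner proteins. Psma7 (3 arrays), Psmb7 (2), Psmc3 (4), Psmd2 (3), Psmd9 (4) and Ube2j2 (5) were not. On all 8 arrays there were 26 proteasome genes and 14 enzymes. The catalytic subunit Psmb7 is thus left out, and Ube2m, Ube2g1, Psmg3 and Psmg4 were not analysed here. Proteasome probes were the more closely repeated ones. Between arrays of the same dye orientation their median SD was 0.43, against 0.85 for enzyme probes and 0.60 for all named probes.

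Proteasome genes had ratios close to 0 between Eps8KO and WT liver. Their median log2 ratio was -0.11, and 29 of 34 (85.3%) lay within 0.5 of 0, where 81.6% of all features did. Medians by mouse were -0.057, -0.032, -0.11 and -0.22, all below 0, while those of all features were 0.016, -0.004, 0.021 and 0.0035. A ratio below 0 was found for 23 of 34 proteasome genes (67.6%) and for 47.2% of all 15455 features, whose median was 0.017. In limma, 0 of 34 proteasome genes passed an unadjusted p under 0.05 in either direction, where 2.15% of all features were higher and 3.09% lower. With 0% of all features past an adjusted p under 0.05, no member could be called by that measure, and the smallest adjusted p of a member was 0.838.

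**Figure D1:**
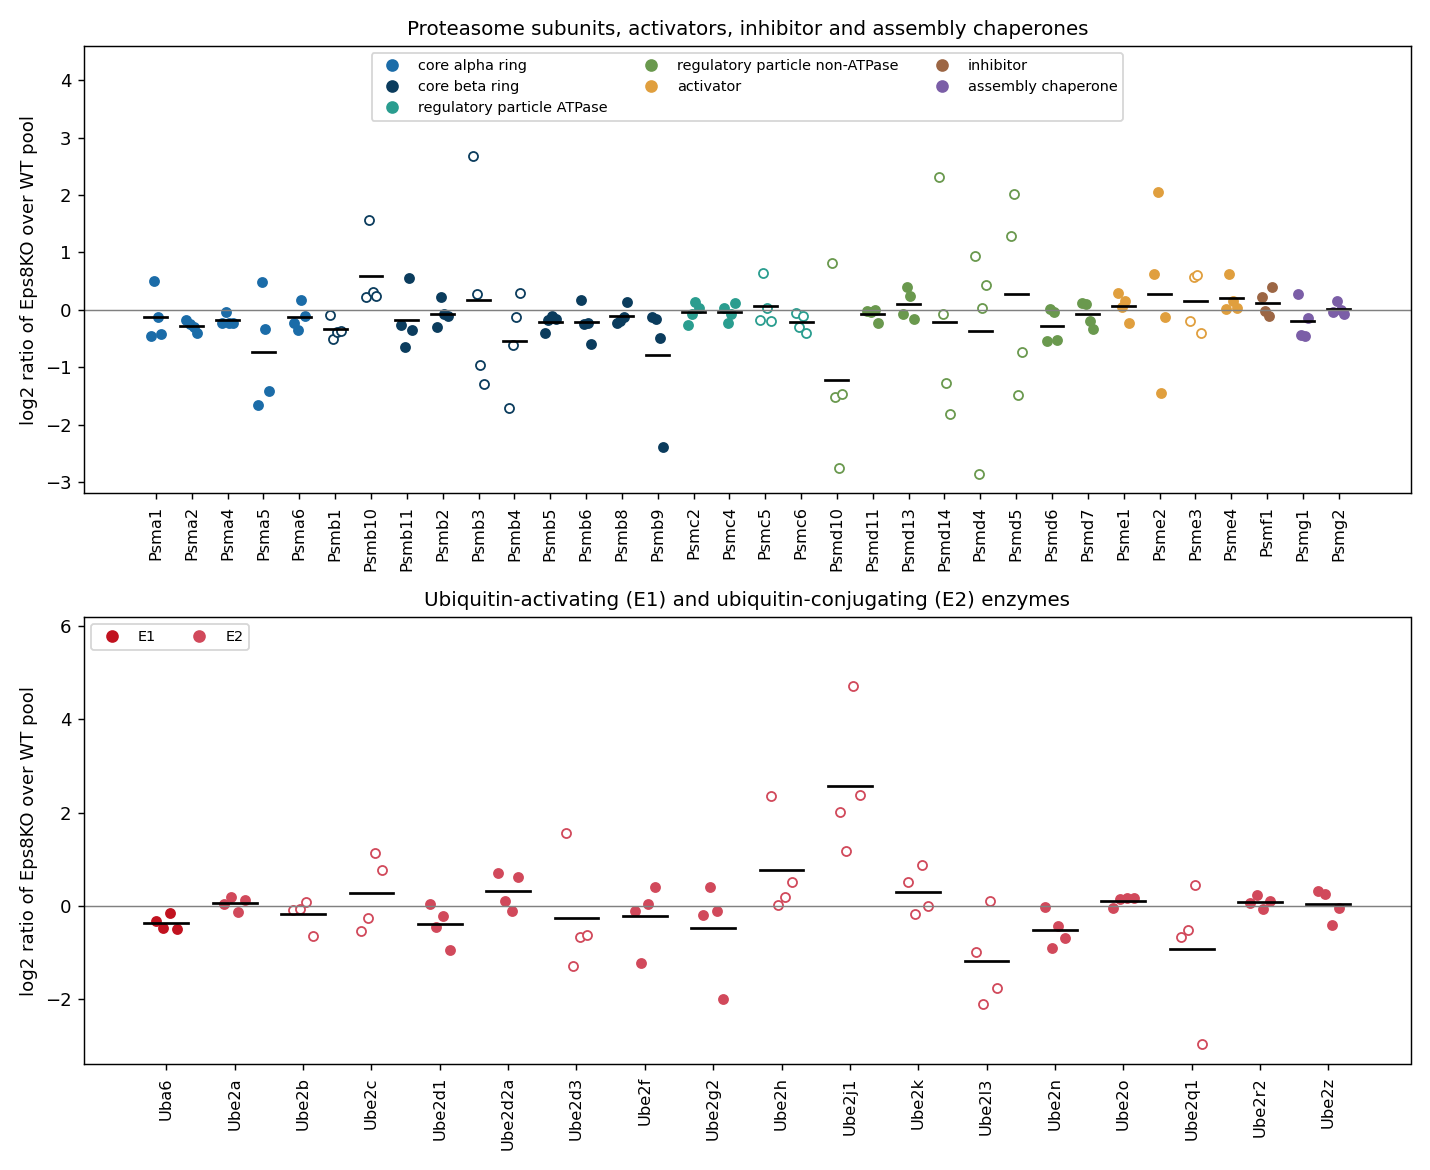
Log2 ratio of Eps8KO over the WT pool (y axis) in each of 4 mice (points, mouse 1 to 4 from left to right within a gene) with the mean (line), for 34 proteasome genes (top) and 18 enzymes (bottom) in the order of their roles. Open points mark genes with a value missing on some array. The proteasome genes with filled points lie mostly near 0 and Ube2j1 stands highest at a mean of 2.57.

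Averaged over both dye orientations, both kinds of core ring subunit tended to lie below 0. All 5 measured alpha ring genes had a mean below 0 (median -0.18), as had 8 of 10 beta ring genes (median -0.20), with Psmb10 and Psmb3 above 0. On all 8 arrays, 5 of 5 alpha and 7 of 7 beta ring genes were below 0 (medians -0.18 and -0.21), against 45.4% of 11602 features. The tendency differed between the dye orientations. With Eps8KO RNA in Cy5, 2 of 5 alpha and 5 of 8 beta ring genes were below 0 (medians 0.12 and -0.14). With it in Cy3, 5 of 5 and 8 of 9 were (medians -0.66 and -0.32). Of all features, 63.5% and 32.9% were below 0 in these orientations. Single genes did not pass the test over all features, and subunits of 1 complex are not replicates of each other.

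Psma2, an alpha subunit chosen here after its values were seen, had a low spread between mice. It had log2 ratios of -0.17, -0.25, -0.30 and -0.40 in the 4 mice. The mean was -0.28 ± 0.097 (SD, n = 4), with a 95% interval from -0.58 to 0.019 and an adjusted p of 0.906 by limma. All 4 mice lay on the same side of 0, yet the interval, whose spread limma draws partly from all features, reached past it. Its sign turned with the dye, at a mean of 0.12 where Cy5 marked the Eps8KO RNA and -0.68 where Cy3 did. Psma5, another alpha subunit, had -1.65, 0.48, -0.34 and -1.41, a mean of -0.73 ± 0.99 (SD, n = 4). It was lower in 3 of 4 mice and higher in mouse 2.

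The catalytic beta subunits of the standard proteasome had means a little below 0. Psmb5, which carries the chymotrypsin-like activity, had -0.41, -0.17, -0.11 and -0.16, a mean of -0.21 ± 0.13 (SD, n = 4) or 1.16-fold lower in Eps8KO. Psmb6, the caspase-like subunit, had 0.17, -0.24, -0.22 and -0.59, a mean of -0.22 ± 0.31 (SD, n = 4), and its 2 probes gave -0.28 and -0.16. Psmb5 was below 0 in 4 of 4 mice and Psmb6 in 3 of 4, and neither passed an unadjusted p under 0.05 in limma. Psmb1, a non-catalytic beta subunit chosen after its values were seen, had -0.089, -0.52, -0.39 and -0.37, a mean of -0.34 ± 0.18 (SD, n = 4) that also missed that threshold (limma adjusted p = 0.906).

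The immunoproteasome subunits, which replace the catalytic ones under interferon, did not move together. Psmb8 had -0.23, -0.19, -0.12 and 0.14, and a mean of -0.10 ± 0.16 (SD, n = 4). Psmb9 had -0.13, -0.17, -0.49 and -2.39, and a mean of -0.79 ± 1.08 (SD, n = 4), of which mouse 4 made the larger part through 1 array at -4.53. Psmb10 had 0.23, 1.56, 0.31 and 0.25, and a mean of 0.59 ± 0.65 (SD, n = 4), with mouse 2 apart from the others. Psmb10 was above 0 in 4 of 4 mice and Psmb9 below 0 in 4 of 4, but the array values of Psmb10 turned with the dye, at a mean of -0.25 where Cy5 marked the Eps8KO RNA and 1.80 where Cy3 did. Of antigen processing genes that work on the peptides of this proteasome, 4 were measured and 0 passed an unadjusted p under 0.05, with a median of -0.024.

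Other beta subunits with ratios far from 0 varied widely between mice. Psmb4 had -1.72, -0.62, -0.12 and 0.30, a mean of -0.54 ± 0.87 (SD, n = 4), from 2 probes at -0.49 and -0.59. The first was on all 8 arrays and the second on 5. The second had a single array in each of mice 1, 2 and 3, at -2.35, -1.26 and 0.655. Psmb3 had 2.68, 0.28, -0.96 and -1.29 from 6 arrays, so that its mean of 0.18 ± 1.80 (SD, n = 4) holds mice on both sides of 0.

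**Figure D2:**
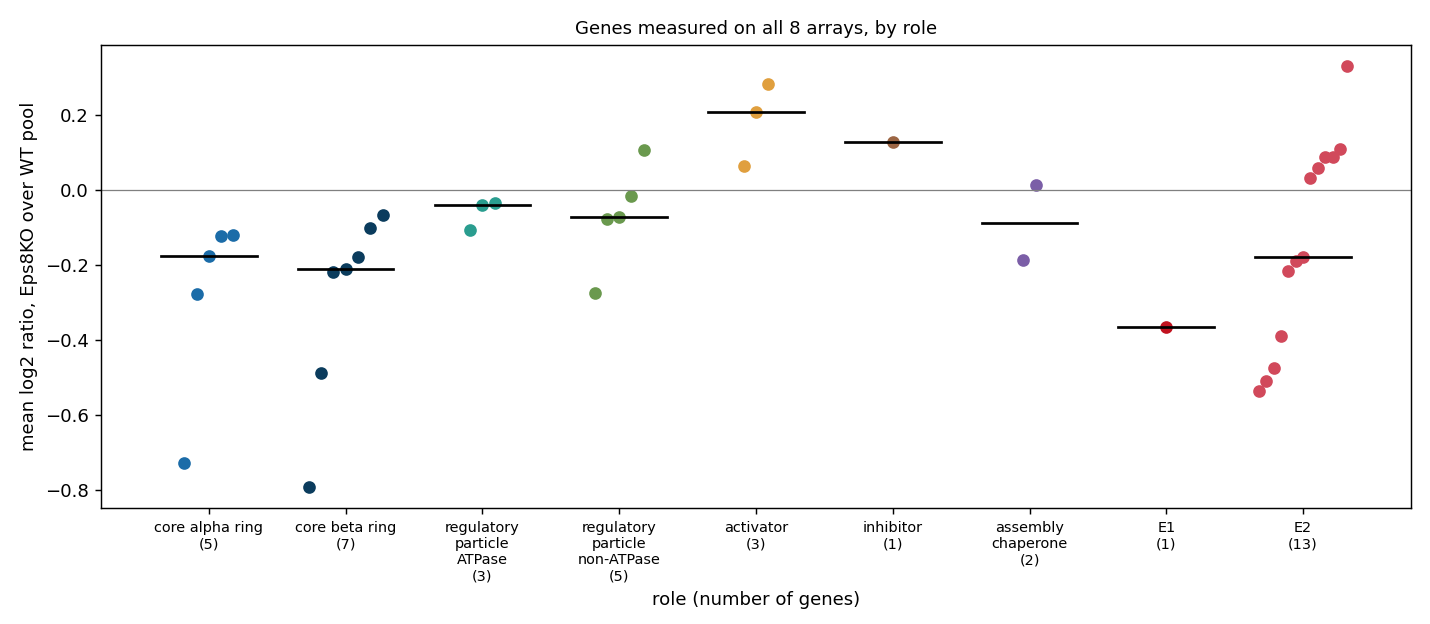
Mean log2 ratio of Eps8KO over the WT pool (y axis) for each of 26 proteasome genes and 14 enzymes on all 8 arrays, grouped by role, with the median of the role as a line. In these means over both dye orientations, all 5 alpha and 7 beta ring genes lie below 0 and all 3 activators above it.

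Averaged over both dye orientations, medians of the regulatory particle lay closer to 0 than those of the core. Its 4 measured ATPases had a median of -0.039 and 3 lay below 0. Psmc5, an ATPase with 3 probes, had -0.18, 0.65, 0.035 and -0.20, a mean of 0.075 ± 0.40 (SD, n = 4), and its 2 probes on all 8 arrays gave -0.20 and -0.012. The sign of its mean thus rested on the probe with a missing array. The 8 genes of the non-ATPase group, which includes the chaperones Psmd10 and Psmd5, had a median of -0.14, and 6 lay below 0. With Eps8KO RNA in Cy5, the medians were 0.27 for 4 ATPases and 0.12 for 7 genes of the non-ATPase group. With it in Cy3, they were -0.39 for 3 and -0.39 for 6. Beside the core medians of each orientation given above, the particle was thus not always the closer to 0.

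The genes of the non-ATPase group farthest from 0 were those with missing arrays. Psmd10, a chaperone of the particle also known as gankyrin, had 0.82, -1.52, -2.75 and -1.46, a mean of -1.23 ± 1.49 (SD, n = 4, 7 arrays; limma adjusted p = 0.906). It was lower in 3 of 4 mice, and mouse 1 was higher on both of its arrays. Psmd4, a ubiquitin receptor, had 0.94, -2.87, 0.034 and 0.43 from 5 arrays, and mouse 2 alone put its mean at -0.36 ± 1.71 (SD, n = 4). Psmd5, an assembly chaperone, averaged 0.28 ± 1.65 (SD, n = 4) over 2 probes, of which the one on all 8 arrays gave -0.017 and the one on 4 arrays 0.57. Psmd11, a scaffold subunit with 2 probes on all 8 arrays, averaged -0.072 ± 0.10 (SD, n = 4), and its probes differed by less than that spread, at -0.077 and -0.067.

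Of the 4 activators, 0 had a mean below 0 (median 0.18), where 47.2% of all features did, and none passed the test. Their median in mouse 4 was -0.18, and the difference from the core was not tested. Psme4, the activator PA200, had 0.008, 0.62, 0.16 and 0.036, a mean of 0.21 ± 0.28 (SD, n = 4). Psme1 and Psme2 form the interferon-inducible activator PA28. Psme1 had 0.29, 0.048, 0.15 and -0.24, a mean of 0.062 ± 0.22 (SD, n = 4). Psme2 had 0.63, 2.05, -1.44 and -0.12, a mean of 0.28 ± 1.46 (SD, n = 4), the widest of the 4. Psme3, the nuclear activator PA28 gamma, had -0.20, 0.57, 0.61 and -0.40, a mean of 0.15 ± 0.52 (SD, n = 4). Only Psme4 was above 0 in 4 of 4 mice, but it turned with the dye. It averaged 0.61 where Cy5 marked the Eps8KO RNA and -0.20 where Cy3 did. The inhibitor Psmf1 averaged 0.13 ± 0.23 (SD, n = 4). The assembly chaperones Psmg1 and Psmg2, which pair up to build the alpha ring, averaged -0.19 ± 0.34 and 0.012 ± 0.10 (SD, n = 4 each).

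Enzymes lay around a median like that of the proteasome and spread between mice about as all features did. Their median log2 ratio was -0.075, 9 of 18 lay below 0, and the median SD between mice was 0.29 for proteasome genes against 0.45 for enzymes and 0.43 for all features. In limma, an unadjusted p under 0.05 was reached by 1 of 18 enzymes that was higher and 3 of 18 that were lower, where 2.15% and 3.09% of all features were, with 0 at an adjusted p. At 1.6-fold with that p, Ube2j1 was higher, where 1.06% of all features were, and Ube2l3 lower, where 1.57% were. By mouse, the proteasome median minus the enzyme median was -0.061, 0.095, -0.11 and -0.20, a mean of -0.068 ± 0.12 (SD, n = 4), smaller than its spread. It was -0.14 without mouse 2 and -0.020 without mouse 4. On genes with all 8 arrays it was -0.013 ± 0.063 (SD, n = 4).

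Ube2j1, an E2 of the endoplasmic reticulum membrane that helps to degrade misfolded secretory proteins, had the highest ratio of all members. It was 2.01, 1.18, 4.71 and 2.38 in the 4 mice, a mean of 2.57 ± 1.51 (SD, n = 4; limma adjusted p = 0.848). Only 5 arrays gave a value. Of these, 3 had Eps8KO RNA in Cy3, at 5.86, 4.71 and 2.38, and 2 had it in Cy5, at -1.85 and 1.18. In mouse 1, the only one with both arrays, the ratio thus had opposite signs in the 2 orientations. The dye swap was incomplete in the other 3 mice, so genotype and dye cannot be told apart there.

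Uba6, an E1 that activates ubiquitin and the modifier FAT10, was lower in all 4 mice, at -0.33, -0.48, -0.16 and -0.49. The mean was -0.37 ± 0.16 (SD, n = 4), 1.29-fold lower in Eps8KO (limma adjusted p = 0.906), from all 8 arrays. The mouse means were close while the arrays were not. With Eps8KO RNA in Cy5, the arrays gave -1.39, -0.50, -1.39 and -1.11, and with it in Cy3 0.73, -0.46, 1.07 and 0.12. All 4 Cy5 arrays were below 0 and 3 of 4 Cy3 arrays above it. Each mouse had both orientations, so a constant dye offset cancels in its mean. Ube2z, the E2 that Uba6 serves, had 3 probes on all 8 arrays that ran from -0.49 to 0.48 and a mean of 0.031 ± 0.33 (SD, n = 4).

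Ube2n, which builds chains linked through lysine 63 of ubiquitin, had -0.030, -0.90, -0.42 and -0.69 in the 4 mice. Its mean was -0.51 ± 0.38 (SD, n = 4; limma adjusted p = 0.906). It averaged -1.02 where Cy5 marked the Eps8KO RNA and -0.00025 where Cy3 did. Ube2l3, which serves HECT and RBR ligases, had -0.98, -2.11, 0.11 and -1.75, a mean of -1.18 ± 0.99 (SD, n = 4; limma adjusted p = 0.906) over 4 probes. Its probes with missing arrays were on 5 and 3 arrays, the one on 5 at -3.55, and the 2 probes on all 8 arrays were at -0.19 and -0.17. On these alone the mean was -0.18 ± 0.22 (SD, n = 4), which did not pass an unadjusted p under 0.05 in limma over features on all 8 arrays.

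Of the other enzymes far from 0, Ube2h had 4 of 4 mice above 0, led by mouse 1 at 2.36, and none passed an unadjusted p under 0.05 in limma. Below 0 were Ube2q1 at -0.92 ± 1.44, Ube2g2, an E2 of endoplasmic reticulum degradation, at -0.47 ± 1.05, and Ube2d1, which serves many ligases, at -0.39 ± 0.42 (SD, n = 4 each). Mouse 4 was the lowest for each of them, at -2.95 for Ube2q1 and -0.94 for Ube2d1. In that mouse Ube2q1 had a value only on the array with Eps8KO RNA in Cy5. There Ube2g2 read -4.05 in Cy5 and 0.04 in Cy3, and Ube2d1 -2.08 and 0.205. Above 0 were Ube2h at 0.77 ± 1.08, Ube2d2a, a close relative of Ube2d1, at 0.33 ± 0.40, Ube2k, which makes chains linked through lysine 48, at 0.30 ± 0.49, and Ube2c, an E2 of the anaphase-promoting complex, at 0.28 ± 0.80 (SD, n = 4 each). The higher means of Ube2h and Ube2k came from probes with missing arrays. On all 8 arrays, 1 probe of Ube2h gave 0.088 and 1 of Ube2k gave -0.54. Genes of the Ube2d family are close in sequence, and cross-hybridisation of their cDNA probes was not tested.

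Among other E2 enzymes with several probes, Ube2a and Ube2b are homologues of yeast Rad6 in DNA repair. Ube2a averaged 0.058 ± 0.14 over probes at -0.062 and 0.18, and Ube2b -0.18 ± 0.32 over 3 probes, of which the 2 on all 8 arrays gave -0.22 and -0.16 (SD, n = 4 each). Ube2r2, an E2 of cullin ligases, averaged 0.088 ± 0.12 (SD, n = 4) over probes at 0.040 and 0.14. Of the partner proteins, Psmc3ip, which acts in meiotic recombination, was at -0.52, -0.33, -0.79 and -0.72, a mean of -0.59 ± 0.21 (SD, n = 4, 7 arrays; limma adjusted p = 0.838). It was below 0 on each of its 7 arrays. Psme3ip1, which binds the activator Psme3, averaged -0.0071 ± 0.20 (SD, n = 4) over 4 probes.

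The orientation of the dyes separated the members more than the genotype did. As an added measure, chosen after the data were seen, the 2 unturned arrays of a mouse were averaged into a ratio of Cy5 over Cy3, in which the genotype cancels. For 26 proteasome genes on all 8 arrays its median was 0.38, with 0.24, 0.26, 0.38 and 0.51 in the 4 mice. For 14 enzymes the median was -0.29, with -0.32, 0.032, 0.074 and -0.18 in the 4 mice, so that their sign was mixed, and for all 11602 features it was -0.12. At an unadjusted p under 0.05 in limma, 13 of 26 proteasome genes (50%) were higher in Cy5, where 11% of all features were, and 1, Psme2, was higher in Cy3, where 18.5% were. Among the enzymes, Ube2b and Ube2h were higher in Cy5 and Uba6, Ube2d1 and Ube2n in Cy3. At an adjusted p under 0.05, 3.12% of all features passed and 0 members did, with a smallest adjusted p of 0.0602.

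**Figure D3:**
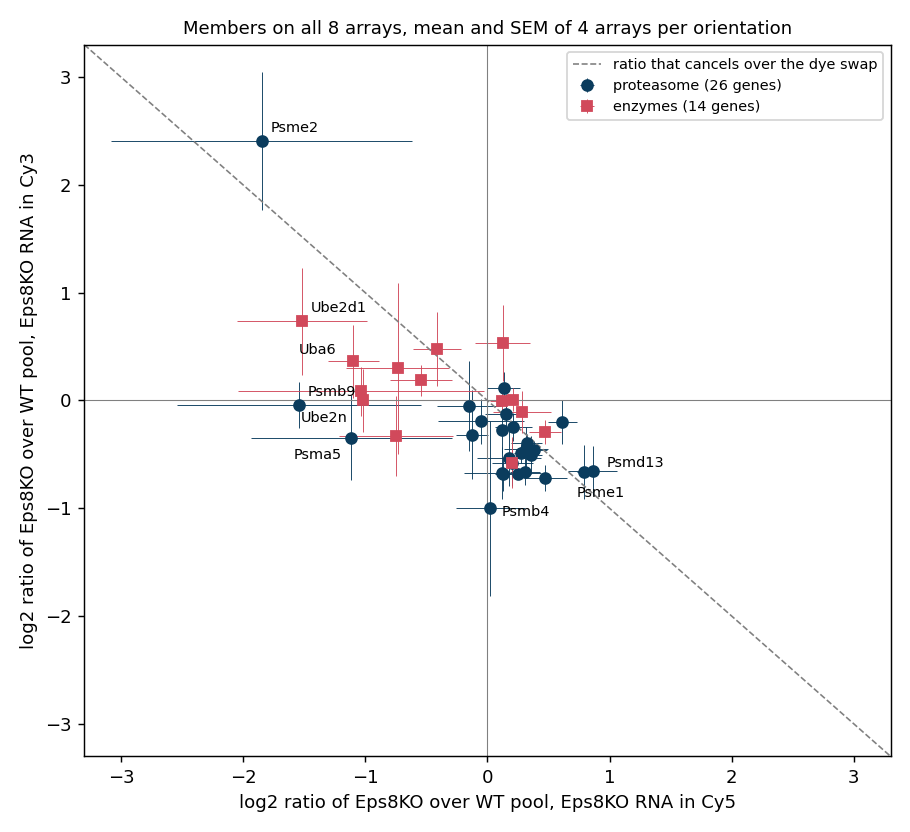
Mean log2 ratio of Eps8KO over the WT pool where Cy5 marked the Eps8KO RNA (4 arrays, x axis) and where Cy3 did (4 arrays, y axis), with SEM bars, for members on all 8 arrays. On the dashed line the ratios of both orientations cancel, and 19 of 26 proteasome genes lie to the right of and below 0.

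Proteasome genes thus read above 0 when Eps8KO RNA carried Cy5 and below 0 when it carried Cy3 in 19 of 26 cases (73.1%), against 4 of 14 enzymes (28.6%) and 24.2% of all features. The part of the ratio that followed the dye was larger than the part that followed the genotype for 20 of 26 proteasome genes (76.9%), 10 of 14 enzymes (71.4%) and 71.1% of all features, so in this the members were like the rest. The direction shared by most proteasome genes was also that of 4 of 6 proteasome-associated proteins and 8 of 12 genes of endoplasmic reticulum degradation on all 8 arrays, so it was not shown to be particular to the proteasome. Psmb5 shows it on single arrays. With Eps8KO RNA in Cy5 it had 0, 0.31, 0.35 and 0.36, and with it in Cy3 -0.82, -0.65, -0.57 and -0.69. The orientations did not overlap, and the Cy5 over Cy3 ratio was 0.47 ± 0.047 (SD, n = 4; limma adjusted p = 0.0606).

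Psme1 and Psme2, partners in 1 activator, had opposite dye ratios. Psme1 was at 0.73 ± 0.29 and Psme2 at -2.13 ± 1.31 (SD, n = 4 each). Arrays of Psme2 with Eps8KO RNA in Cy5 read 0.18, -0.060, -5.09 and -2.42, and those with it in Cy3 1.09, 4.16, 2.21 and 2.18. Psmd13, a non-ATPase subunit chosen after its values were seen, had the highest dye ratio of the proteasome, 0.76 ± 0.34 (SD, n = 4). Wherever Cy5 marked the Eps8KO RNA, the proteasome median was above 0 (0.12, 0.23, 0.21 and 0.27), and wherever Cy3 did, it was below 0 (-0.29, -0.30, -0.46 and -0.65). Enzyme medians were -0.20, -0.059, -0.095 and -0.46 in Cy5 and 0.38, -0.094, -0.11 and 0.16 in Cy3. With genes measured on the 4 arrays of 1 orientation in place of all 8, the proteasome median minus the enzyme median was 0.55 ± 0.26 on the Cy5 arrays (30 and 16 genes) and -0.58 ± 0.32 on the Cy3 arrays (30 and 15 genes; SD, n = 4 mice each), with the same sign in 4 of 4 mice each time. The plot of array medians shows the crossing.

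**Figure D4:**
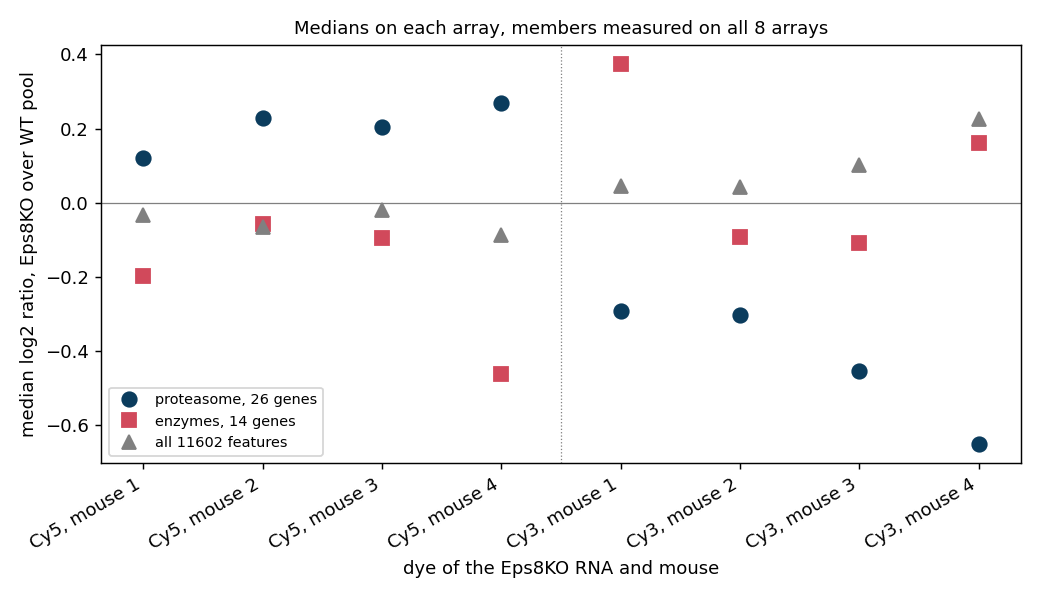
Median log2 ratio of Eps8KO over the WT pool (y axis) on each of the 8 arrays, by dye of the Eps8KO RNA and mouse (x axis), for 26 proteasome genes, 14 enzymes and 11602 features with values on all 8 arrays. Proteasome medians are above 0 on the 4 Cy5 arrays and below 0 on the 4 Cy3 arrays.

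Other genes of the pathway were mostly without a call, from lists chosen with earlier results of these data known. Of 16 genes of endoplasmic reticulum degradation, 12 lay below 0 (median -0.18), and at an unadjusted p under 0.05 there was 1 higher and there were 2 lower. Of all features, 47.2% lay below 0, and at that p 2.15% were higher and 3.09% lower. The higher one was Vcp, the ATPase that pulls proteins out of the membrane for the proteasome, at 1.03, 0.91, 0.86 and 1.07, a mean of 0.97 ± 0.10 (SD, n = 4, 7 arrays; limma adjusted p = 0.441). It was close to 1 in each mouse, though at 1.71 where Cy5 marked the Eps8KO RNA and 0.43 where Cy3 did. The lower ones were Derl1, a channel component, at -0.48 ± 0.34 and Sel1l, a ligase adaptor, at -0.54 ± 0.31 (SD, n = 4 each). Derl1 was at 0.069 where Cy5 marked the Eps8KO RNA and -1.03 where Cy3 did, and Sel1l at -0.31 and -0.71. Of 32 deubiquitinases, 2 were higher (Otub1 and Usp47) and 1 lower (Usp8). Of 14 E3 ligases, Rbck1 was lower, and of 7 ubiquitin-like modifiers Atg12, which serves autophagy, was lower at -0.69 ± 0.45 (SD, n = 4), with -1.62 where Cy5 marked the Eps8KO RNA and 0.090 where Cy3 did. On probes with all 8 arrays, Otub1 was at 0.0053, Usp8 at -0.12 and Atg12 at -0.56, and none of these passed an unadjusted p under 0.05 in limma. Usp47 at 0.63, Derl1 at -0.48 and Sel1l at -0.46 did pass it on such probes. So did the modifiers Nedd8 at -0.27 and Ufm1 at -0.39, which had no call before. Vcp and Rbck1 had no probe on all 8 arrays. The 6 proteasome-associated proteins (median -0.24), 7 cullin ligase subunits (0.0079) and 7 subunits of the COP9 signalosome (0.16) had 0 calls in either direction. Of the transcription factors of proteasome genes, 2 were measured and 0 passed. Nfe2l1 had -0.12, -4.99, 5.77 and -0.53 in the 4 mice, a mean of 0.036 ± 4.42 (SD, n = 4). With that spread, this mean cannot tell a change from none. On probes with all 8 arrays Nfe2l1 was at -0.096. Nfe2l2 averaged 0.23 ± 0.35 (SD, n = 4).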

How the data were processed

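Liver RNA of 4 Eps8KO mice was measured against a WT pool on 8 arrays. The authors deposited log2 ratios of Cy5 over Cy3. Their methods describe MIDAS total intensity normalisation, background and flip dye filters, but the deposited array means of -0.39 to -0.18 do not show whether these were applied. Of the deposited value columns, 0 were left out. Spots were named from the platform's table by a shift of 32, with 12367 rows named. Members, lists and tests were chosen with earlier results of these data known.

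Ratios were reversed where Cy3 marked the Eps8KO RNA and averaged over both arrays of each mouse, then over each gene's probes. The 15455 features with 4 mice were tested against 0 by limma 3.58.1 (lmFit, eBayes) under R 4.3.3 (two-sided, Benjamini-Hochberg over all features). The fit was tested on simulated data. Named genes were members at an unadjusted p under 0.05, the 5 highest and 5 lowest of each class, the catalytic, activator, chaperone, E1 and endoplasmic reticulum members, and those with over 1 probe. Psma2, Psma4, Psmb1, Psmd13, Psmf1 and Ube2o are named beyond it after their values were seen. Alternatives were other scalings, array and mouse requirements, single orientations, single probes, a flip dye filter, unshifted names, a dye term, other moderation and each mouse left out. Medians over members carry no p. Scanner intensities were not analysed here. The precision is limited by the 4 mice and by the WT pool, which is 1 sample. Python 3.11.15, pandas 2.3.3 and Matplotlib 3.10.9 were used.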

Additional observations from a re-analysis of the deposited data

Results flagged for a closer look

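In 5 of 54 members, 1 mouse lay far from the other 3 by Dixon's criterion, which chance meets in about 1 of 20 groups. Psmb9 had -2.39 in mouse 4, with the others from -0.49 to -0.13. Psmb10 had 1.56 in mouse 2, with the others from 0.23 to 0.31. Psma4 had -0.030 in mouse 2, with the others from -0.24 to -0.22. Psmd11 had -0.22 in mouse 4, with the others from -0.035 to -0.0048. Ube2o, an E2 that also acts as a ligase, had -0.051 in mouse 1, with the others from 0.15 to 0.17.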

How the results depend on the processing

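Counts below are at an unadjusted p under 0.05 in limma, and at 1.6-fold with that p where named. The share of all features called under each alternative is not given, so these counts are no result about the members. All features also moved with the dye, with 63.5% below 0 on the Cy5 arrays alone and 32.9% on the Cy3 arrays alone. Counts at an adjusted p under 0.05 stayed at 0 for both classes under every alternative for which they were computed. Using only the 4 arrays where Cy5 marked the Eps8KO RNA, 3 proteasome genes were higher (2 at 1.6-fold), 0 enzymes were higher (0 at 1.6-fold) and 5 lower (5 at 1.6-fold), the proteasome median was 0.13, the enzyme median -0.75 and their difference 0.55. Using only the 4 where Cy3 did, 1 proteasome gene was higher (1 at 1.6-fold) and 10 lower (3 at 1.6-fold), 0 enzymes were higher and 0 lower (0 and 0 at 1.6-fold), the medians were -0.33 and 0.30 and the difference -0.58, and Uba6 was at 0.36. With the sign of no array turned, a setting chosen after seeing the data, 12 proteasome genes were higher and 2 lower (2 and 2 at 1.6-fold), 0 enzymes were higher and 6 lower (0 and 3 at 1.6-fold), the medians were 0.17 and -0.54 and the difference 0.70. Psmc3ip was then at 0.080 and Ube2j1 at -2.44.

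With all 8 arrays required, 1 proteasome gene was lower (Psma2) and the enzyme median was -0.18. Of 14 enzymes, 0 were then higher (0 at 1.6-fold) and 2, Uba6 and Ube2n, were lower (0 at 1.6-fold). With array medians set to 0, 1 proteasome gene was lower, and with at least 3 mice 1 was higher (1 at 1.6-fold). With 1 feature per probe, 1 proteasome probe was lower and the enzyme median was -0.16. With the flip dye filter, 0 enzymes were higher and 1 lower (0 and 0 at 1.6-fold), from 8 enzymes left. With names put on without the shift, 1 proteasome gene was lower, 0 enzymes were higher (0 at 1.6-fold), 1 was lower, the proteasome median was -0.037 and the enzyme median -0.013. With a dye term, 2 proteasome genes were lower, 0 enzymes higher and 1 lower (0 and 0 at 1.6-fold). Without moderation, 4 proteasome genes and 1 enzyme were lower (0 enzymes at 1.6-fold). Except where a setting itself leaves fewer genes or arrays, the cause was not tested.

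With each mouse left out in turn, 0 to 1 proteasome genes were higher and 0 to 1 lower (0 to 1 each at 1.6-fold), 0 to 2 enzymes were lower (0 to 1 at 1.6-fold) and the enzyme median ran from -0.14 without mouse 1 to 0.036 without mouse 4. The proteasome median stayed below 0, from -0.13 to -0.066, and its difference from the enzyme median ran from -0.14 without mouse 2 to -0.020 without mouse 4. No enzyme was lower without mouse 2 or without mouse 4. Of single genes, 492 values under the alternatives moved by less than the spread between mice or kept their call, 72 moved by more and 3, given above, changed sign after a call. Counted with or without a call, 19 of 47 members took the opposite sign on the Cy5 arrays alone, among them 16 of 30 proteasome genes. On the Cy3 arrays alone, 11 of 47 did, among them 4 of 30 proteasome genes and 6 of 15 enzymes. With 1 mouse left out, 4 to 9 of 54 did. No paired analysis was possible because the WT pool is 1 sample, and both arrays of each mouse form 1 value.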
